A study of Homo sapiens with 2 samples.

Results

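The expression of 5 DNA mismatch repair genes, the MutS homologs MSH3 and MSH6 and the MutL homologs MLH3, PMS1 and PMS2, was examined in control and FZR1 ko breast cancer cells treated with cisplatin. They were taken by Entrez gene ID from the 23033 genes with a value, and all 5 reached 1 FPKM in one or both libraries, as did 13554 genes in all, which were the genes compared. FPKM counts sequenced fragments per kilobase of transcript, relative to all mapped fragments. Total RNA of each condition was sequenced once, so there were 2 libraries. The control was wild type for FZR1 per the labels and the other was a CRISPR/Cas9 FZR1 knockout, a single-cell clone. Both were labelled T-47D, a luminal breast cancer cell line, and both received 2 µg/ml cisplatin. The design text of the series speaks of 2 cell lines, and whether this means the wild type and knockout lines is not stated. With 1 library per condition no difference has a replicate check and no p-value is given, and a difference between a clone and its parent cannot be told apart from an effect of FZR1. The depth behind each value is unknown, because FPKM holds no number of reads.

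FZR1 itself had 12.3 FPKM in control against 10.1 in FZR1 ko, a level that does not check the labels, since a frameshift need not lower the transcript. Of 12 marker genes of luminal breast cells, 7 were under 1 FPKM in both libraries, among them ESR1, PGR, GATA3 and CDH1, and 3 had at least 10 FPKM in both, namely XBP1 and the keratins KRT8 (829 and 998 FPKM) and KRT18 (552 and 740 FPKM). The labelled T-47D identity therefore lacked its defining hormone receptor transcripts. Of 12 mesenchymal and basal markers, 6 had at least 10 FPKM in both libraries, led by VIM with 315 FPKM in control against 295 in FZR1 ko, and SPARC, KRT5 and KRT14 were under 1 FPKM in both.

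Mismatch repair removes bases that were wrongly paired during DNA replication. MutS complexes find the error. MSH6 is the subunit that makes the complex read single mispairs and short loops, and MSH3 is its counterpart in the complex for longer loops. MutL complexes then bind, and those with PMS2 or MLH3 carry an endonuclease that nicks the new strand. PMS1 forms another MutL complex, whose role in repair is small, and MLH3 acts mainly in meiotic crossing over. The pathway matters for cisplatin because MutS binds the cross-links that the drug forms between neighbouring guanines, and tumor cells that lose the pathway often tolerate the drug better.

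PMS1 and PMS2 start back to back with another gene, and these shared start regions were looked at because such neighbours can be compared within the same stretch of DNA. The starts of PMS1 and ORMDL1, a regulator of sphingolipid synthesis, are 110 bases apart, and those of PMS2 and AIMP2, a scaffold of aminoacyl-tRNA synthetases, are 165 bases apart. The bases between each pair are given below, on the strand of the member, together with the 250 bases before the first start of MSH6, the most abundant member. They lie at chr2:189784340-189784449 (plus strand), chr7:6009107-6009271 (minus strand) and chr2:47782895-47783144 (plus strand) of GRCh38.p14 and are RefSeq sequences. Capitals mark matches on either strand to GGGCGG (the GC box), CCAAT and TTTNNCGC (a core shared by many E2F sites). In PMS2 the last overlaps a GC box.
PMS1: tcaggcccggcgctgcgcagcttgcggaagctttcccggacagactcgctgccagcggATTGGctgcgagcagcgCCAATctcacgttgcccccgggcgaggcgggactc
PMS2: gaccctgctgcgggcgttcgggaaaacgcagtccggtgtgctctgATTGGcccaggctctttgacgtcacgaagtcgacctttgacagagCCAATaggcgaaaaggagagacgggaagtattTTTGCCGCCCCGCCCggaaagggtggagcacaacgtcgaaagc
MSH6: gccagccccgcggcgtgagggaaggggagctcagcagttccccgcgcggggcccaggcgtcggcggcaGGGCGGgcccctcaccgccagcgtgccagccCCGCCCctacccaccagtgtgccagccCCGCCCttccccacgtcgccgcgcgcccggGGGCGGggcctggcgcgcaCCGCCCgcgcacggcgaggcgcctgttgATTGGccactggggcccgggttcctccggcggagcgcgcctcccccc

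The stretch of MSH6 holds 5 GC boxes and is 81.2% G and C, that of PMS2 holds 2 at 58.8% and that of PMS1 holds none at 70.0%. Over the first RefSeq promoter of each member, from 250 bases before to 50 after the start, GGGCGG was in 4 of 5, CCAAT in 3 of 5 and TTTNNCGC in 3 of 5. Over the first RefSeq promoter of each of 27305 genes these shares were 44.6%, 35.7% and 6.90%. Those genes include ones not expressed here, unlike the members, so the shares are not a like comparison. MLH3 held none of the motifs. These are matches of letters only, and the binding of no factor was measured.

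MSH6 was by far the most abundant of these transcripts and MSH3 was the scarcest in control. MSH6 had 70.3 FPKM in control, above 90.1% of the genes compared, and made up 69.1% of the summed FPKM of the 5 genes. PMS2 followed with 17.4 FPKM, PMS1 with 7.49 FPKM, MLH3 with 3.98 FPKM and MSH3 with 2.54 FPKM. In FZR1 ko the order was the same but for the last places, where MSH3 (5.99 FPKM) stood above MLH3 (3.13 FPKM). MSH6, PMS2 and PMS1 thus led in both libraries. The 5 genes together had 102 FPKM in control against 103 in FZR1 ko. Neither the MutS members (72.8 and 73.8 FPKM) nor the MutL members (28.9 FPKM in both) differed in their sum by more than 0.02 on the log2 scale. The MutS sum is mostly MSH6, so it hardly shows the difference in MSH3. Without MSH6 the members summed to 31.4 FPKM in control against 34.9 in FZR1 ko (log2 ratio 0.15). With 1 library each, it was not tested whether neighbours in this order differ beyond their spread.

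**Figure D1:**
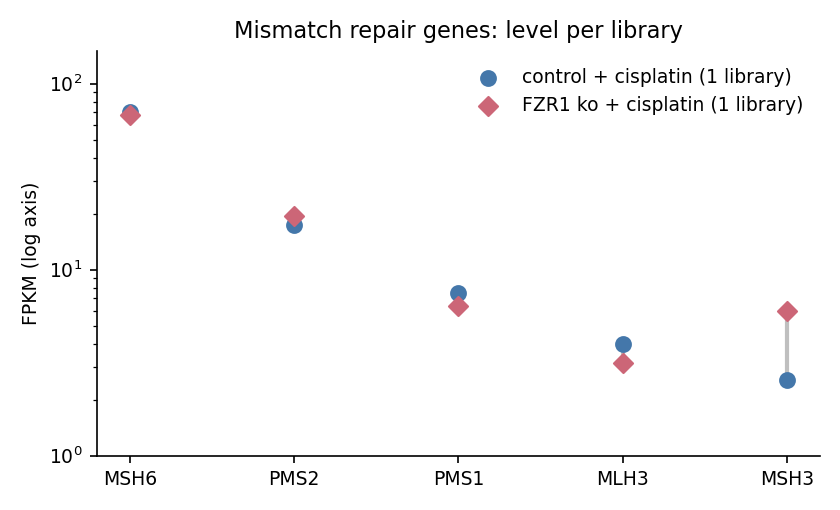
FPKM (log axis) of the 5 mismatch repair genes in the control library (circles) and the FZR1 ko library (diamonds), both with cisplatin, 1 library each, joined by a grey line. MSH3 has the widest gap, from 2.54 to 5.99 FPKM, and crosses MLH3, while MSH6 lies near 70 FPKM in both.

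MSH3 was the one member with a large difference. It had 2.54 FPKM in control against 5.99 in FZR1 ko, 2.36-fold higher. Because 1 FPKM was added to both values before taking the ratio, which shrinks the change of low genes, its log2 ratio was 0.98, just below the 2-fold limit of 1. This was higher than the log2 ratio of 92.9% of all genes compared. With 0.1 FPKM added in place of 1 the log2 ratio was 1.21, and with 5 FPKM it was 0.54.

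MSH6, the other MutS member, hardly differed. Its levels were 70.3 FPKM in control against 67.8 in FZR1 ko, a log2 ratio of -0.05, which became 0.02 when the libraries were rescaled by their upper quartile. The level of MSH6 relative to MSH3 was 27.7 in control and 11.3 in FZR1 ko. Relative to the median of protein-coding genes of like genomic span, described further on, MSH3 was at 0.19 and MSH6 at -0.01.

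The MutL members lay close to the middle of all genes. PMS2 had 17.4 FPKM in control against 19.5 in FZR1 ko (log2 ratio 0.15). PMS1 had 7.49 and 6.37 FPKM (-0.20), and MLH3 had 3.98 and 3.13 FPKM (-0.27). The last of these was -0.14 with 5 FPKM added. MSH3 and PMS2 were thus higher in FZR1 ko and the other members were lower, with MSH6 turning under upper quartile scaling. PMS2 over PMS1 was 2.32 in control and 3.05 in FZR1 ko, and PMS2 over MLH3 was 4.37 and 6.21.

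Of the 5 members, 0 passed the 2-fold limit, against 13.5% of all 13554 genes in either direction and 6.78% in the direction of FZR1 ko. Higher in FZR1 ko by any amount were 2 of 5 members and 49.6% of all genes. The median log2 ratio of the members was -0.05, beside -0.0048 for all genes, whose quartiles were -0.42 and 0.43. Apart from MSH3, the members lay within these quartiles.

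**Figure D2:**
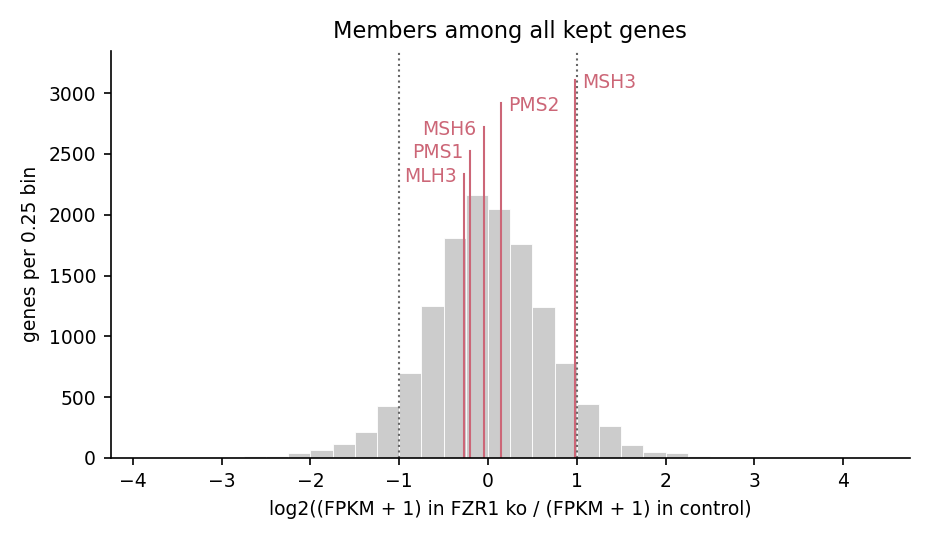
Histogram of the log2 ratio of FZR1 ko to control (FPKM + 1) over the 13554 genes compared, in bins of 0.25, with the 5 mismatch repair genes as red lines. Dotted lines mark the 2-fold limit. MSH3 lies at 0.98, just inside the right limit, and the other 4 lie between -0.27 and 0.15.

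The members differ widely in the length of genome they span, and this measure went with the log2 ratio across all genes. MSH3 spans 222 kb of chromosome 5 (80654652 to 80876815, plus strand) in the RefSeq annotation of GRCh38.p14, which is hg38. PMS1 spans 93.2 kb of chromosome 2 (189784450 to 189877629, plus strand). PMS2 spans 38.2 kb of chromosome 7 (5970925 to 6009106, minus strand) and MLH3 spans 37.7 kb of chromosome 14 (75013775 to 75051467, minus strand). MSH6 is the most compact, with 27.0 kb of chromosome 2 (47783145 to 47810101, plus strand). The mature transcripts of the 2 MutS members have nearly the same length, with 4443 bases for MSH3 and 4265 bases for MSH6, so most of the difference is intron. MSH3 has 24 coding exons and MSH6 has 10.

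Among the 11548 protein-coding genes compared, long genes were mostly higher in FZR1 ko and short genes mostly lower. Of 557 genes over 200 kb, 91.0% were higher in FZR1 ko, with a median log2 ratio of 0.80. Of 1950 genes of 50 to 100 kb, 67.6% were higher (median 0.25). Of 3257 genes of 20 to 50 kb, 46.7% were higher (-0.04), and of 1192 genes under 5 kb, 34.1% were (-0.21). The value of MSH3 was thus 0.19 above the median of its class and higher than 64.1% of it. PMS1 was 0.45 below the median of its class, higher than only 19.5% of it. MSH6, MLH3 and PMS2 differed from the median of their class by -0.01, -0.23 and 0.20. Of the 5 members, 4 lay between the quartiles of their class and PMS1 lay below it. The part of gene span in these values was not tested, since both vary across genes within the same 2 libraries.

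**Figure D3:**
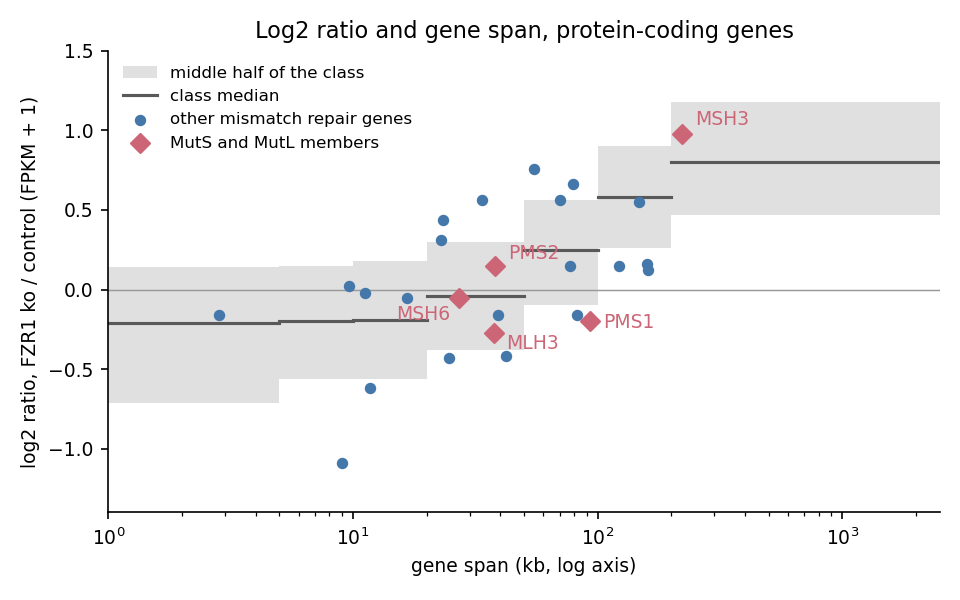
Log2 ratio of FZR1 ko to control (FPKM + 1) against gene span (kb, log axis). Grey blocks and dark lines give the interquartile range and the median of protein-coding genes in 7 span classes, diamonds the 5 members and circles 21 other mismatch repair genes. The class median goes from -0.21 under 5 kb to 0.80 over 200 kb. MSH3 lies near the line of its class and PMS1 below it.

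The genes paired with PMS1 and PMS2 were compared with them. ORMDL1 had 23.9 FPKM in control against 17.9 in FZR1 ko (log2 ratio -0.40), lower in FZR1 ko as PMS1 was (-0.20). AIMP2 had 76.1 and 74.5 FPKM (-0.03), beside 0.15 for PMS2. The strand of the libraries is not given in the sources used here. Of the windows of 50 bases in the main MSH6 transcript, 9.23% occur on the opposite strand of transcripts of FBXO11, so reads there are uncertain.

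PMS2 shares sequence with many pseudogene copies, to unlike degrees, so its value is uncertain. Of the windows of 50 bases in its main transcript, 35.5% also occur on the same strand in transcripts of other genes. The largest share, 31.8%, was with a gene that has no symbol in GENCODE, and 13.8% occurred in PMS2CL, the most of the named pseudogenes. For MSH6, MLH3 and PMS1 this share was 0.0%, and for MSH3 it was 1.27%. The table held 8 PMS2 pseudogenes with 62.7 FPKM in control against 55.5 in FZR1 ko in sum, more than PMS2 itself. They went both ways. PMS2P4 had 4.57 FPKM in control against 7.89 in FZR1 ko (log2 ratio 0.67). PMS2P2 had 5.03 and 1.69 FPKM (-1.16) and was the only copy past the 2-fold limit, which it did not reach with 5 FPKM added (-0.58) or after subtracting the median of its span class (-0.97). PMS2CL had 9.01 and 7.06 FPKM (-0.31). PMS2 summed with its pseudogenes had 80.1 FPKM in control and a log2 ratio of -0.09 in place of 0.15. Most of this sum is pseudogene FPKM, largely of copies that share few such windows with PMS2. How reads were split between PMS2 and the copies was not tested.

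**Figure D4:**
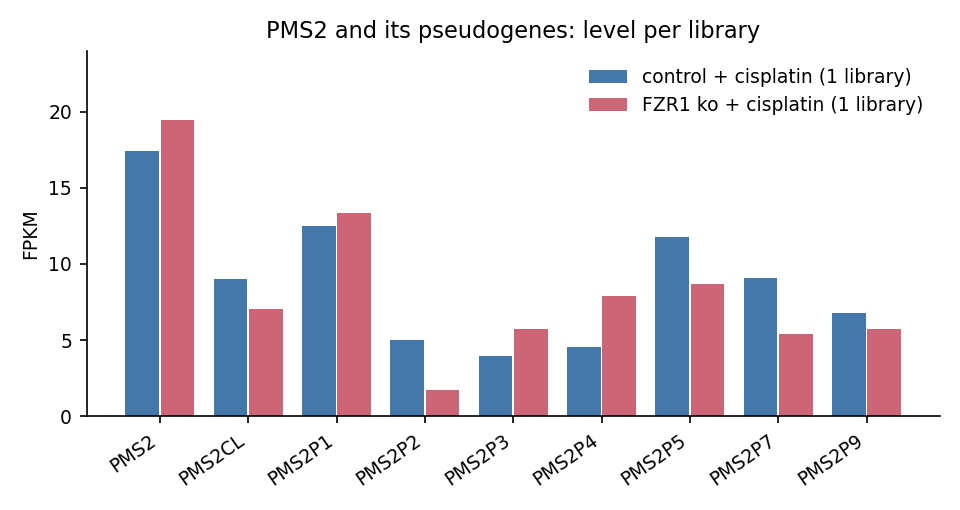
FPKM of PMS2 and 8 PMS2 pseudogenes in the control (blue) and FZR1 ko (red) libraries, both with cisplatin, 1 library each. PMS2 is the highest at 17.4 and 19.5 FPKM. The copies range from 1.69 to 13.3 FPKM and differ in both directions.

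The proteins that act with MutS and MutL were compared next, in a list of 21 genes. All 21 were among the genes compared, 12 higher and 9 lower in FZR1 ko, with a median log2 ratio of 0.12. Past the 2-fold limit was 1 of 21, MBD4, against 13.5% of all genes. MBD4, a glycosylase for G:T mispairs that binds the MutL complex, had 80.3 FPKM in control against 37.1 in FZR1 ko (log2 ratio -1.09). It was 0.90 below the median of genes of its span and higher than 7.29% of them.

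The clamp and its loader went both ways. PCNA, the ring that holds the polymerase on DNA and that MSH3 and MSH6 bind, had 328 FPKM in control against 212 in FZR1 ko (-0.62). RFC1, the large subunit of the loader, had 13.7 and 22.2 FPKM (0.66), while RFC5 had 67.9 and 49.99 FPKM (-0.43). RFC2 (0.31), RFC3 (0.16) and RFC4 (-0.05) lay between. EXO1, the exonuclease that removes the strand with the error, had 52.8 and 39.3 FPKM (-0.42). The loader thus had no common direction, and both PCNA and EXO1 were lower in FZR1 ko.

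Of the genes that protect and refill the gap, 2 of 3 RPA genes and 4 of 5 polymerase and ligase genes were higher in FZR1 ko, against 49.6% of all genes, with POLD2 close to 0 and POLD3 below it after the span adjustment given further on. RPA1 (0.56) and RPA2 (0.44), of the protein that coats single-stranded DNA, were higher, and RPA3 was at -0.16. POLD1, the catalytic subunit of polymerase delta, had 24.7 FPKM in control against 36.9 in FZR1 ko (0.56). Of its other subunits, POLD2 was at 0.02, POLD3 at 0.15 and POLD4 at -0.16. LIG1, the ligase that seals the nick, had 16.7 and 28.9 FPKM (0.76), the largest log2 ratio above 0 in the list. POLD1 and LIG1 were also above 87.8% and 85.6% of the genes of their span.

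Among the other factors, SETD2, which writes the histone mark that MSH6 reads, had 5.92 FPKM in control against 9.11 in FZR1 ko (0.55). The chromatin protein HMGB1 (0.12), the helicase MCM9 (0.15), the nuclease FAN1 (-0.16) and MUTYH (-0.02), which removes adenine opposite oxidized guanine, were closer to 0. Of the 9 genes in the list over 50 kb, 8 were higher in FZR1 ko, and of the 6 up to 20 kb, 1 was. Among all protein-coding genes compared, 67.6% of those of 50 to 100 kb were higher. This share was 87.8% for 100 to 200 kb, 91.0% over 200 kb, and between 34.1% and 35.8% in the classes up to 20 kb. Subtracting the median of each span class gave the list a median of -0.03 in place of 0.12. SETD2, HMGB1, MCM9, RFC3 and POLD3 were then below 0, and POLD4, RFC4 (0.15) and MUTYH (0.18) were above it. For HMGB1 and RFC3 this rested on the annotated span, since with the much shorter span of their main transcripts both stayed above 0.

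**Figure D5:**
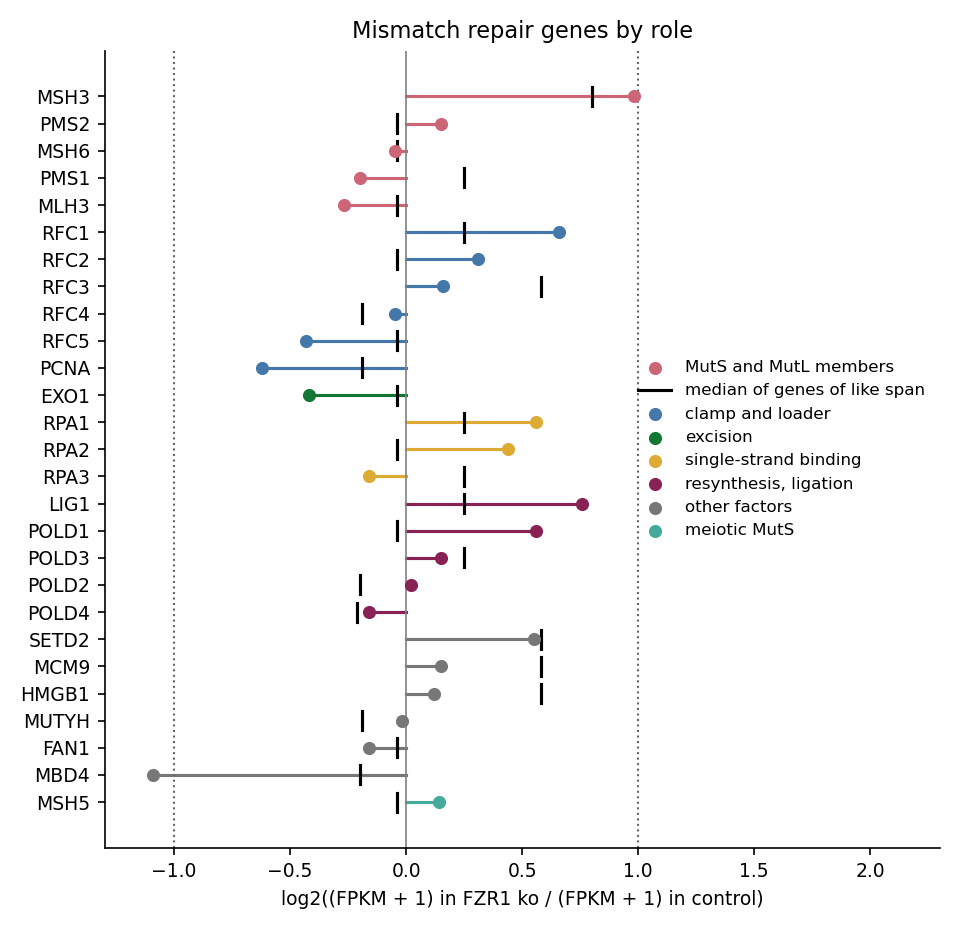
Log2 ratio of FZR1 ko to control (FPKM + 1) for the 5 members, 21 other mismatch repair genes and MSH5, grouped by role. Black ticks give the median of protein-coding genes of like span and dotted lines the 2-fold limit. MBD4 at -1.09 is the only gene past the limit, and MSH3 at 0.98 lies just inside it.

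PCNA, EXO1 and several loader genes are made mainly in S phase. Of 16 genes of late G1 and S phase, 12 were lower in FZR1 ko and 4 were higher, with a median log2 ratio of -0.23. Of all genes 49.6% were higher, and of protein-coding genes of 10 to 20 kb, the class of the median span of these 16 genes, 35.8% were. After subtracting the median of each span class the median of the 16 was -0.14. CCNE2 had 77.3 FPKM in control against 24.3 in FZR1 ko, and CCNE1 had 56.7 and 22.9 FPKM. Of 16 genes of G2 and mitosis, 10 were lower (median -0.17, and -0.03 after subtracting the class medians). The part of the cell cycle in the values of PCNA and EXO1 was not tested.

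The meiotic MutS homologs were low. MSH4 had 0.16 FPKM in control against 0.04 in FZR1 ko and was below the minimum of 1 FPKM. MSH5 had 2.74 and 3.13 FPKM (0.14), but a readthrough gene shares its exons, so this value is uncertain. By its levels in the 2 libraries, the gene of the list of 21 nearest to MSH6 was RFC5, at a distance of 0.435 on the log2(FPKM + 1) scale. For PMS2 it was POLD4 (0.224), for PMS1 SETD2 (0.543), and for both MLH3 (0.757) and MSH3 (1.06) it was MCM9. MSH3 thus had no close match in the list.

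The values of other repair pathways were not tested against those of the members. Of 24 nucleotide excision repair genes, 10 were higher in FZR1 ko and 1 was past the 2-fold limit (median log2 ratio -0.03). Of 14 Fanconi anemia genes, 8 were higher and 1 was past it (0.17). Over all genes 49.6% were higher and 13.5% were past the limit in either direction. The genes past it were lower in FZR1 ko, namely ERCC4 (-1.10, 32.2 kb), a subunit of the nuclease that cuts beside the lesion, and FAAP24 (-1.23, 5.99 kb), which binds DNA with the Fanconi core complex. The highest log2 ratios were those of MNAT1 and FANCC. MNAT1, of the kinase of TFIIH, spans 235 kb and had 2.37 FPKM in control against 5.72 in FZR1 ko. FANCC, of the Fanconi core complex, spans 219 kb and had 1.02 and 2.99 FPKM (0.98). FAAP100, of the same complex, had a log2 ratio of 0.83 with a span of only 13.2 kb.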

How the data were processed

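The authors sequenced total RNA of both conditions on the BGISEQ-500 platform and used Bowtie2 and RSEM with hg38. The submitters' processing notes also list Trimmomatic 0.36, HISAT2 2.1.0 and Bowtie2 2.2.5. The annotation version, read length and filters are not given in the sources used here. The deposited values are FPKM per Entrez gene ID with 2 decimals. Of 24663 rows, 1630 held no value and were left out. Of the other IDs, 99.5% matched a symbol in the RefSeq table of GRCh38.p14, and FPKM summed to 502589 in control and 500488 in FZR1 ko.

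The log2 ratio of FZR1 ko over control was taken after adding 1 FPKM to both, for genes reaching 1 FPKM in either library, and a ratio of 2-fold or more was counted. No test was made. The counting and the span medians were checked on simulated data. The counting check used 4-fold changes and no low levels, so it did not cover low genes near the 2-fold limit, such as MSH3. Gene span came from RefSeq, and main transcripts (MANE Select), strands and shared windows of 50 bases from GENCODE 44. Genes back to back start within 1000 bases of each other on opposite strands.

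The members and the gene lists were chosen with earlier results of these data known, and the span classes and motifs after the values were seen. Named genes were the members, the repair lists, PMS2 pseudogenes, neighbours, FZR1, and in other lists those with the largest log2 ratios and some markers. The marker genes and FBXO11 were named after their values were seen. Some genes are not reported here. Alternatives were other pseudocounts, filters, scalings and thresholds, and protein-coding genes only. Python 3.11.15, numpy 2.4.6, pandas 2.3.3 and matplotlib 3.10.9 were used.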

Additional observations from a re-analysis of the deposited data

How the results depend on the processing

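No paired analysis was possible because there is a single library of either genotype, which also leaves no replicate to omit. The 2-fold limit passed 1 member, MSH3, in place of 0 with a pseudocount of 0.1 FPKM, with upper quartile scaling and at 1.5-fold. Of all genes 1830 passed it, but 2818 did with 0.1 FPKM added, 453 with 5 FPKM added, 4827 at 1.5-fold and 150 at 4-fold, by the construction of these settings. In the list of 21 genes, 4 passed at 1.5-fold and 0 at 4-fold, in place of 1. The other settings fixed at the start kept each count within 1.5 times and each median within 0.1 of its value. PMS2 summed with its pseudogenes was at -0.09. After subtracting the median of the span class, an alternative added after seeing the data, the sign turned for HMGB1 (-0.45), MCM9 (-0.42), RFC3 (-0.42), POLD3 (-0.10), SETD2 (-0.03), POLD4 (0.05), RFC4 (0.15), MUTYH (0.18), AIMP2 (0.16) and the median of the list of 21 (-0.03). Depth is unknown, so the counting error of the members cannot be given.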

Other observations

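The relation between gene span and log2 ratio that surrounds the value of MSH3 was described further over 11364 protein-coding genes with a MANE Select transcript. These genes share the same 2 libraries and are not replicates. Spearman's rho between the log2 ratio and the RefSeq gene span was 0.45. It was 0.18 with the length of the mature transcript, which itself goes with span (0.59), and -0.13 with mean FPKM. Within the lowest, middle and highest GC content of the transcript, 3788 genes each, rho with span was 0.53, 0.51 and 0.40. Within the shortest, middle and longest transcripts it was 0.29, 0.44 and 0.57.

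With the span of the main transcript in place of the RefSeq gene, the median log2 ratio of genes over 200 kb was 0.87, and MSH3 lay 0.11 above it in place of 0.19. PMS1 lay 0.50 below its class in place of 0.45. HMGB1 and RFC3, whose main transcripts span 9.23 and 19.4 kb, then lay 0.32 and 0.34 above their classes, where they had lain 0.45 and 0.42 below them. Among genes with a mean of 2 to 100 FPKM the class over 200 kb had a median of 0.88 and that under 5 kb one of -0.28.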
